A study of Drosophila melanogaster with 9 samples.

Results

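Innexins are the proteins that build gap junctions in flies. They were followed here in heads of kdm5 mutant flies through the 8 genes of the family that the tables name, which are ogre, Inx2, Inx3, Inx5, Inx6, Inx7, shakB and zpg, out of 17478 genes in all. The members were taken by gene name alone. RNA was from whole heads of adults aged 3 to 5 days, in 9 libraries: 3 of wild type, 3 of kdm5[A512P] and 3 of kdm5[JmjC*]. KDM5 is a chromatin enzyme that removes methyl groups from histone H3. A512P is a missense allele modelled on a change in human KDM5C found in intellectual disability, and JmjC* encodes a protein without demethylase activity. The sources used here do not say how the alleles were carried, which sex was used, or whether replicate libraries were separate collections of flies. The p-values therefore cover library-to-library spread only, and that may be technical. Each mutant was compared with the same wild-type libraries. Values per library were not used here: each gene has a mean normalized count over the libraries, and for each mutant a log2 fold change against wild type with its standard error (SE) and adjusted p, all from the authors' deposited tables. The direction, mutant over wild type, is inferred from how the comparisons are named, and each rise or fall below rests on it.

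Innexins span the membrane and dock with innexins of the adjoining cell, forming channels that pass ions and small molecules. Between neurons such channels are electrical synapses. In glia and epithelia they couple cells into sheets, and channels of mixed composition, such as those of ogre with Inx2 or of Inx2 with Inx3, are known in flies. The members have separate tissues and roles: ogre was named for the reduced optic ganglia of its mutants, shakB forms electrical synapses of the giant fibre escape circuit, Inx6 and Inx7 have been linked to memory in the brain, Inx5 and Inx6 to the mushroom body, and zpg couples germ cells to somatic cells in the gonad.

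The 5 innexins with appreciable head expression did not move as a block. In A512P heads Inx3 and Inx7 rose and the other 3 did not pass the threshold of an adjusted p under 0.05. In JmjC* heads Inx3 and Inx7 rose as well, while ogre, Inx2 and shakB fell. Every change other than that of Inx7 was below 1.5-fold.

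Levels differed widely within the family. Per kilobase of exon, Inx3 had the highest mean normalized count, at 1917, followed by ogre at 1383, Inx2 at 1199, shakB at 302 and Inx7 at 78.9. Inx3, ogre and Inx2 made up 39.3%, 28.3% and 24.6% of the family's summed level per kilobase, and shakB 6.20%. These 3 leading members stood at percentiles 92.1, 88.7 and 86.8 of the 15152 genes with a count above 0, shakB at 59.99 and Inx7 at 43.5. The level of shakB divides by 18308 bases of possible exons, whereas its longest transcript has 14924 bases; per kilobase of that transcript it was 371. The spread of these levels over libraries was not used here, so the order among Inx3, ogre and Inx2 was not tested.

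**Figure D1:**
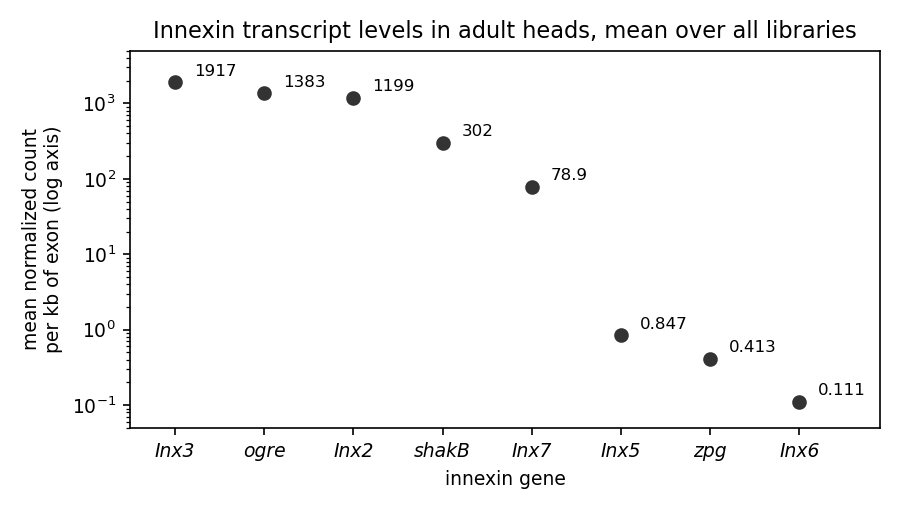
Mean normalized count per kilobase of exon (log axis) for each innexin, over all libraries of the 3 groups, from the authors' deposited tables; each point is 1 gene and no error is shown because values per library were not used. Inx3, ogre and Inx2 lie at 1199 or above, shakB and Inx7 at 302 and 78.9, and Inx5, zpg and Inx6 below 1.

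The remaining 3 members were close to absent from these libraries. Inx5 had a mean normalized count of 1.54, zpg of 0.636 and Inx6 of 0.209, each below the lowest count among tested genes, 3.75 for A512P and 2.90 for JmjC*. These 3 have no adjusted p in either of the authors' deposited tables, so 5 of the 8 members were tested. Their log2 fold changes there lay between -0.025 and 0.042 with SEs from 0.052 to 0.11. Such values carry no information on change: genes with a mean count under 2 had a median SE of 0.0553 for A512P, against 0.124 for tested genes, so the authors' fold changes are shrunken towards 0 where counts are low. At this depth a change of Inx5, Inx6 or zpg was not detectable. Among germline genes, nos and bam were also under 2, at mean normalized counts of 1.76 and 1.002, while osk, bgcn, vas, aub and piwi were higher, from 6.57 to 67.4.

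Of the 5 tested members, 2 were called in A512P, both higher than wild type, where 21% of 11608 tested genes were called, 10.2% higher and 10.8% lower. In JmjC* all 5 were called, 2 higher and 3 lower, where 28.8% of 11898 tested genes were called, 14.2% higher and 14.6% lower. The median log2 fold change of the 5 was 0.093 in A512P and -0.20 in JmjC*, beside 0.0027 and 0.011 over all tested genes. With 5 genes these shares are a description of the family.

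**Figure D2:**
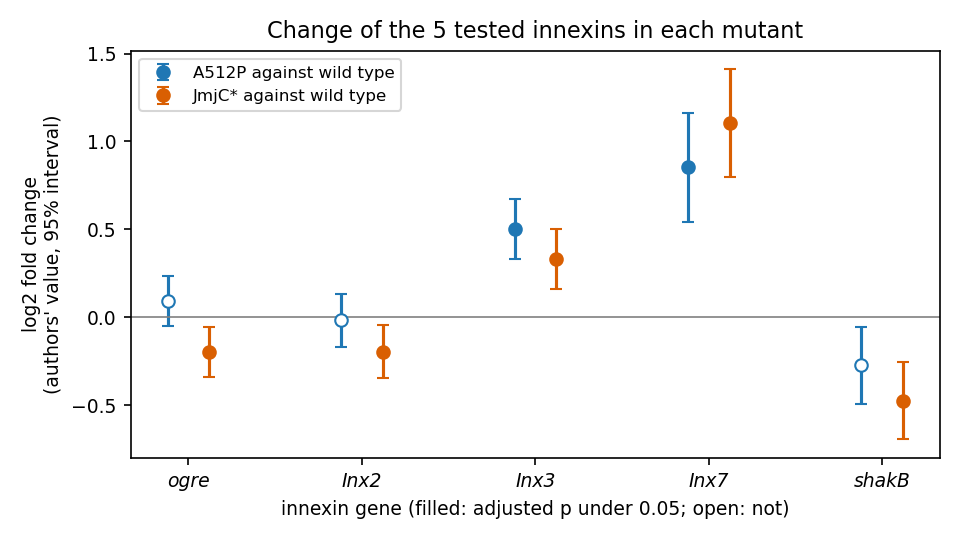
Log2 fold change of the 5 tested innexins against wild type (points, authors' deposited tables) with 95% intervals from the authors' SE, for A512P (blue) and JmjC* (orange); filled points have an adjusted p under 0.05. Inx3 and Inx7 lie above 0 in both mutants, and shakB lies below 0 in both but is filled only in JmjC*. In JmjC* ogre and Inx2 lie below 0 and are filled. In A512P ogre and Inx2 are open, at 0.093 and -0.016.

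Inx3, an epithelial innexin that pairs with Inx2 and is needed for dorsal closure of the embryo, was the most abundant member and rose in both mutants. In A512P it was 1.42-fold higher, at a log2 fold change of 0.50 ± 0.086 (SE, 3 libraries a group; adjusted p = 2.12e-07, DESeq2 in the authors' deposited table). In JmjC* it was 1.26-fold higher, at 0.33 ± 0.086 (adjusted p = 9.07e-04, the authors' deposited table). The 95% intervals of the log2 fold change, 0.33 to 0.67 and 0.16 to 0.50, overlap. Inx3 (FBgn0265274) lies on chromosome 3R from 28853606 to 28859497 on the minus strand (BDGP6.54), inside the span of spg on the other strand, with no exon bases shared. The log2 fold change of spg in the authors' deposited tables was -0.27 in A512P (adjusted p = 0.0527) and -0.021 in JmjC* (adjusted p = 0.908), opposite in sign to that of Inx3.

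Inx7, an innexin of the nervous system, had the largest change of the family and the lowest level among its tested members. Its mean normalized count was 129, and it was 1.81-fold higher in A512P (log2 0.85 ± 0.16, adjusted p = 2.10e-06) and 2.15-fold higher in JmjC* (log2 1.10 ± 0.16, adjusted p = 8.41e-11) in the authors' deposited tables. These log2 fold changes stood at percentiles 97.6 and 98.3 of all tested genes. Its SE was the largest among the 5 tested members, and its 95% intervals, 0.54 to 1.16 and 0.80 to 1.41, lie above 0 in both comparisons.

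**Figure D3:**
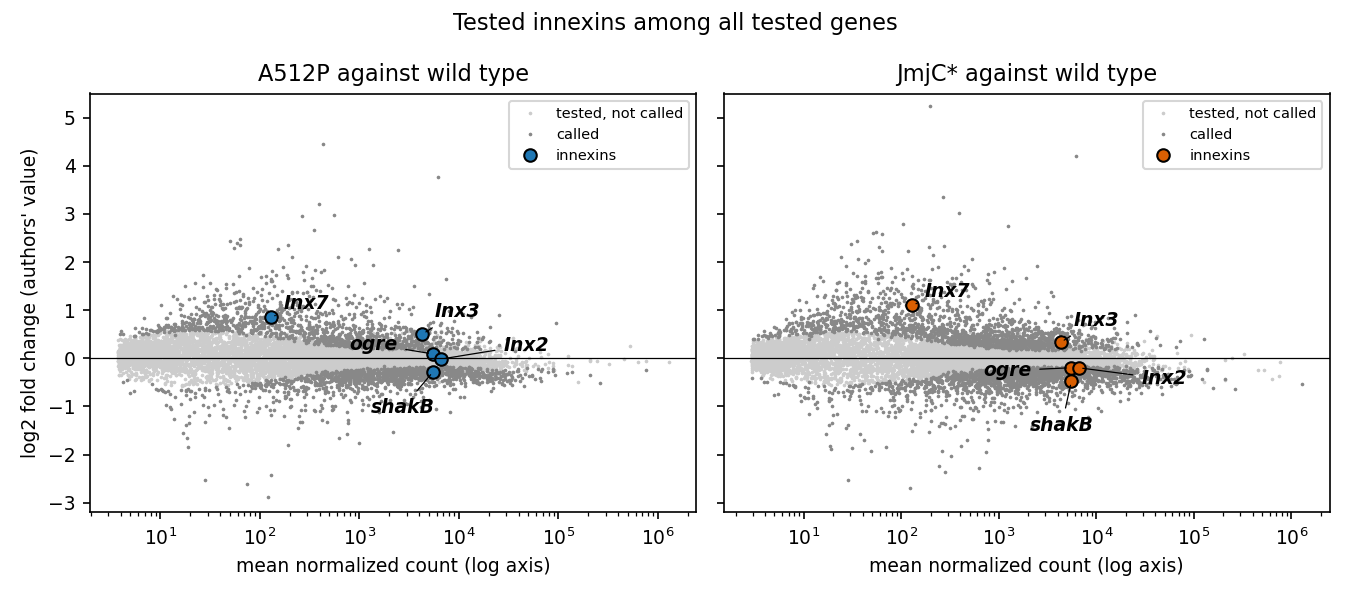
Log2 fold change against mean normalized count (log axis) for all tested genes in each of the authors' deposited tables (light grey not called, dark grey called), with the 5 tested innexins marked. Inx7, at a count of 129, stands well above most genes, whereas ogre, Inx2, Inx3 and shakB sit between 4297 and 6570 counts with log2 fold changes between -0.48 and 0.50.

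Inx2, a partner of both ogre and Inx3 in coupled glia and epithelia, did not pass in A512P, at a log2 fold change of -0.016 ± 0.077 (adjusted p = 0.922, the authors' deposited table). The 95% interval of that value allows a change between -10.9% and 9.78%. In JmjC* Inx2 fell 1.14-fold, at a log2 fold change of -0.20 ± 0.077 (adjusted p = 0.0408, the authors' deposited table). The call in JmjC* sits close to the threshold: it is lost at an adjusted p under 0.01, and it is also lost when p-values are adjusted over all genes that have one.

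The optic lobe gene ogre showed a fall of similar size in JmjC*, 1.15-fold, at a log2 fold change of -0.20 ± 0.072 (adjusted p = 0.0272, the authors' deposited table). In A512P it stood at 0.093 ± 0.072 and did not pass (adjusted p = 0.406, the authors' deposited table), with a 95% interval from -3.33% to 17.6%. Like that of Inx2, the call of ogre in JmjC* does not hold at an adjusted p under 0.01.

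Transcripts of shakB, the electrical synapse innexin, fell 1.39-fold in JmjC*, at a log2 fold change of -0.48 ± 0.11 (adjusted p = 2.05e-04, the authors' deposited table). In A512P the value was -0.27 ± 0.11 in the authors' deposited table, with an adjusted p of 0.0625, just short of the threshold. The annotation gives shakB 8 transcripts from 7 start sites over 166 kb, with proteins from 292 to 532 residues, and ogre 6 transcripts from 5 start sites that share a protein of 362 residues. The tables hold 1 value per gene, so which shakB isoform changed was not analysed here.

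The mutants were compared with each other through the difference of their log2 fold changes, over all 11608 genes tested in both tables. With an SE from the root of the summed squared SEs, as for independent comparisons, an upper bound because both use the same wild-type libraries, 0.879% of genes differed and 0 of the 5 innexins did, with 1 of them, ogre, at an unadjusted p under 0.05 in this normal test. The difference of ogre, JmjC* minus A512P, was -0.29 ± 0.10 (adjusted p = 0.281). With 3 libraries in every group and like spread, the shared wild-type libraries would correlate the comparisons at about 0.5. At that correlation the SE of ogre is 0.072 and its adjusted p is 0.00392 in the same normal test. The count of 0 thus rests on an SE larger than the design implies, though the correlation was not measured here. Inx2 (-0.18), Inx3 (-0.17) and shakB (-0.20) were also lower in JmjC* than in A512P by value and Inx7 was higher (0.25), each with an adjusted p of 0.9997. Their 95% intervals from the upper-bound SE include 0. The widest runs from -0.19 to 0.69 for Inx7 and the narrowest from -0.39 to 0.034 for Inx2. At a correlation of 0.5 the unadjusted p in this normal test was 0.020 for Inx2 and 0.048 for Inx3. It was 0.072 for shakB and 0.11 for Inx7, and the adjusted p was 0.242 or higher for each of them. Likeness of the mutants is not shown under either setting.

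Of the 8 genes 6 lie on chromosome X, including all tested members except Inx3. Among X-linked genes 18% of 1891 tested were called in A512P and 28.3% of 1939 in JmjC*, with median log2 fold changes of 0.013 and 0.032. The X-linked members went both ways, with Inx7 higher and, in JmjC*, ogre, Inx2 and shakB lower.

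Inx7, ogre and Inx2 lie side by side, which sets their unlike changes in 1 stretch of the chromosome. On BDGP6.54, ogre (FBgn0004646) runs from 6973620 to 6991318 and Inx7 (FBgn0027106) from 6991612 to 6993612, both on the minus strand with 293 bases between them. Inx2 (FBgn0027108) follows from 6998672 to 7004151 on the plus strand. Between Inx7 and Inx2 lies CR43837, a non-coding RNA gene on the minus strand from 6995882 to 6997799, which starts 872 bases from the start of Inx2 and ends 2.27 kb before the start of Inx7. CR43837 rose together with Inx7: it was 2.25-fold higher in A512P (log2 1.17 ± 0.18, adjusted p = 1.10e-08) and 2.07-fold higher in JmjC* (log2 1.05 ± 0.18, adjusted p = 3.02e-07) in the authors' deposited tables. Its mean normalized count of 161 is near the 129 of Inx7.

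The flanking genes did not share that rise. Downstream of Inx7 on the same strand, ogre stood at 0.093 in A512P and fell in JmjC*, and across the divergent start from CR43837, Inx2 stood at -0.016 in A512P and fell in JmjC*, in the authors' deposited tables. The outer neighbours CG3040 and cm, and bou, a septate junction gene within an intron of ogre, had log2 fold changes between -0.014 and 0.17, with none past the threshold in either of the authors' deposited tables. A non-coding gene within ogre, CR44084, shares 403 exon bases with ogre on the opposite strand, and the sources used here do not say whether counting used strand. The mean normalized count of CR44084 was 3.45, against 5448 for ogre. All its exon bases lie within ogre exons, so if counting ignored strand, its reads could not be told from those of ogre. Its count would then not give its level. Whether Inx7 and CR43837 are 1 transcription unit or share a cause of their rise was not tested.

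**Figure D4:**
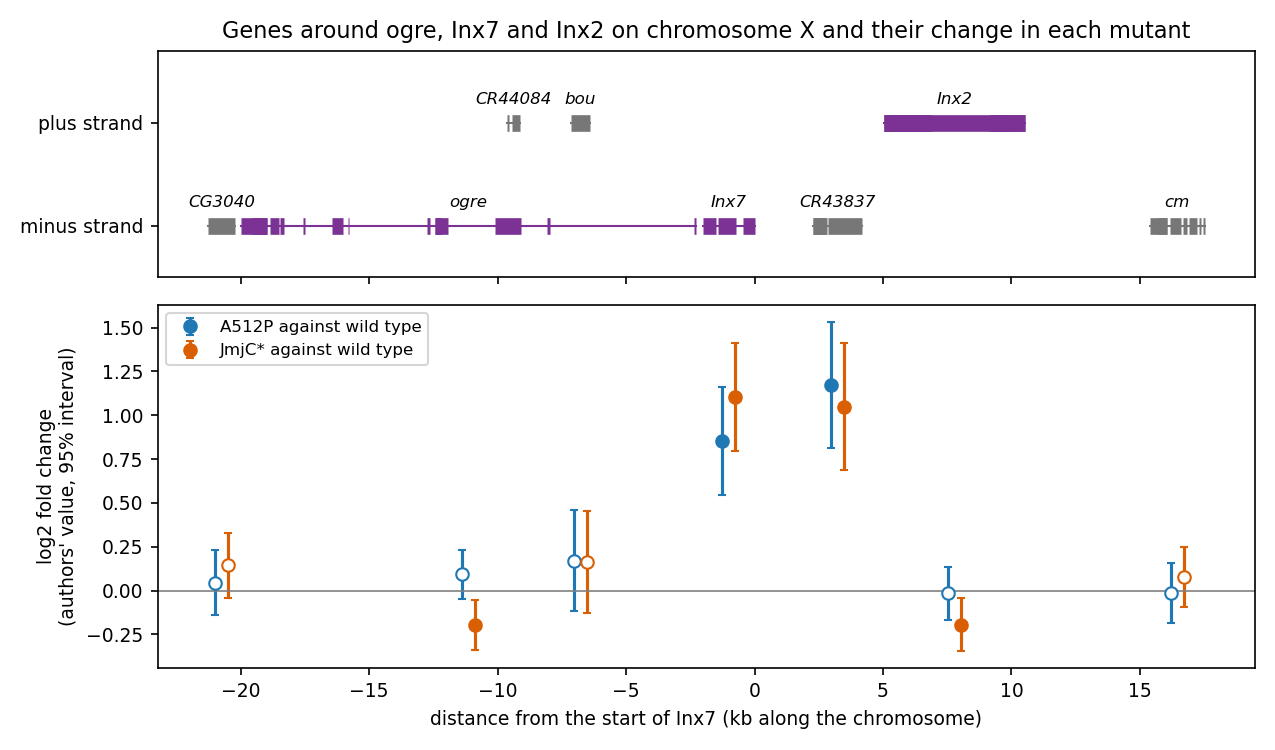
Upper panel, genes around Inx7 on chromosome X by strand, with exons as boxes and innexins in purple; the horizontal axis is the distance in kb from the start of Inx7. Lower panel, log2 fold change of each gene tested in both tables with its 95% interval at the gene's centre (A512P blue, JmjC* orange; filled, adjusted p under 0.05; authors' deposited tables): Inx7 and CR43837 lie between 0.85 and 1.17, and the genes on both sides lie between -0.20 and 0.17.

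The neighbours of the other innexins were read in the same way. The nearest genes beyond spg around Inx3 are Apc, which did not pass in either mutant, and CG33203, 11.1 kb away, which was lower in A512P (log2 -0.37, adjusted p = 0.00549) and in JmjC* (-0.30, adjusted p = 0.0224) in the authors' deposited tables. The remaining genes are Inx5 (FBgn0030989; X, 19168777 to 19170883), Inx6 (FBgn0027107; X, 20267821 to 20269769), shakB (FBgn0085387; X, 20761071 to 20927050) and zpg (FBgn0024177; 3L, 6604366 to 6606032), all on the minus strand. Inx5 shares 118 exon bases with the microRNA gene mir-4959, and its neighbour CG33939, at 193 bases, was at log2 0.47 in A512P (adjusted p = 0.067) and at 0.57 in JmjC* (adjusted p = 0.0158) in the authors' deposited tables. Of the other nearest neighbours, RhoGAP18B beside Inx5, CR43838 beside shakB and CR45418 beside zpg did not pass in either mutant, and CG42577 and CR45504 beside Inx6, CG11227 beside shakB and ndl beside zpg were not tested. Inside the span of shakB lie 6 genes that share no exon bases with it, each with a mean normalized count under 2.

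Junction genes outside the family were read from 2 lists. Septate junctions seal epithelia and the glial sheath of the brain, and of their 26 genes 5 rose and 1 fell in A512P, and 8 rose and 3 fell in JmjC*, with median log2 fold changes of 0.11 and 0.11. That is 23.1% and 42.3% called, against 21% and 28.8% of all tested genes, in A512P and JmjC* respectively. The polarity gene l(2)gl rose by 0.60 in A512P and 0.62 in JmjC* (SE 0.087 in each), and CG13704, now named hoka, a component of gut septate junctions, fell (log2 -1.80 and -1.52), in the authors' deposited tables. Its partner mesh was at 0.57 (adjusted p = 0.0522) in A512P and rose by 1.07 in JmjC* (adjusted p = 2.40e-05), in the authors' deposited tables. Of 14 adherens junction and polarity genes, 1 rose and 2 fell in A512P, and 2 rose and 3 fell in JmjC* (medians -0.073 and -0.024). The shares called, 21.4% and 35.7%, are near those over all genes. Here sdt, of the Crumbs complex, rose by 0.33 and 0.41, and the kinase gene aPKC fell (log2 -0.26 and -0.28), in the authors' deposited tables. The cadherin-binding p120ctn stood at -0.11 in A512P (adjusted p = 0.366) and fell in JmjC* (-0.26) in the authors' deposited tables.

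Calcium signals can pass through gap junctions, and of 11 genes of calcium release and calmodulin signalling 1 rose and 2 fell in A512P, and the 3 called in JmjC* were lower (medians -0.13 and -0.11). The share called was 27.3% in each, near those over all genes. Ca-P60A, the SERCA calcium pump, fell in both mutants (log2 -0.35 and -0.32, the authors' deposited tables). CaMKI rose by 0.28 in A512P and stood at 0.091 in JmjC* (adjusted p = 0.442), while CaMKII stood at -0.13 in A512P (adjusted p = 0.527) and fell in JmjC* (-0.36), in the authors' deposited tables.

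Genes read for neurons that use electrical synapses, or lie downstream of them, were in 3 lists. In a list of 9 genes read for the giant fibre circuit, without shakB, the 2 called in A512P and the 3 called in JmjC* were lower (medians -0.16 and -0.18). The shares called, 22.2% and 33.3%, are near those over all genes. This list is not specific to that circuit: para is also among the neuronal markers and Nrg in the septate junction list. Its values in whole heads are not particular to those neurons. The acetylcholine genes ChAT and VAChT fell in A512P (log2 -0.38 and -0.32) and in JmjC* (-0.50 and -0.53), and the calcium sensor gene Frq1 stood at -0.19 in A512P (adjusted p = 0.242) and fell in JmjC* (-0.38), in the authors' deposited tables. The connection from photoreceptors to the lamina is known to need ogre and shakB. Of 9 genes read for histamine transmission and lamina neurons, 1 fell in A512P and 4 in JmjC* (medians -0.083 and -0.19, with 11.1% and 44.4% called). In this list 1 entry, matched by the symbol tan to a gene on 3L (FBgn0028980), may not be the gene t that was meant. It was not called in either mutant, but it enters the medians and shares. Hdc, the histamine-synthesizing enzyme, fell in both (log2 -0.31 and -0.25, the authors' deposited tables). The homeobox genes bsh and oc fell in JmjC* (log2 -0.41 and -0.33), and they stood at -0.36 (adjusted p = 0.0519) and -0.21 (adjusted p = 0.105) in A512P, in the authors' deposited tables. In the mushroom body list of 14 genes 6 fell and 1 rose in each mutant (medians -0.23 in both; 50% called in each). The peptide gene sNPF (log2 -0.65 and -0.86), the dopamine-synthesis gene Ddc (-0.45 and -0.49) and the transcription factor gene dac (-0.45 and -0.40) fell in both, in the authors' deposited tables. The 1 gene that rose was ey, in both mutants (log2 0.30 and 0.35, the authors' deposited tables).

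**Figure D5:**
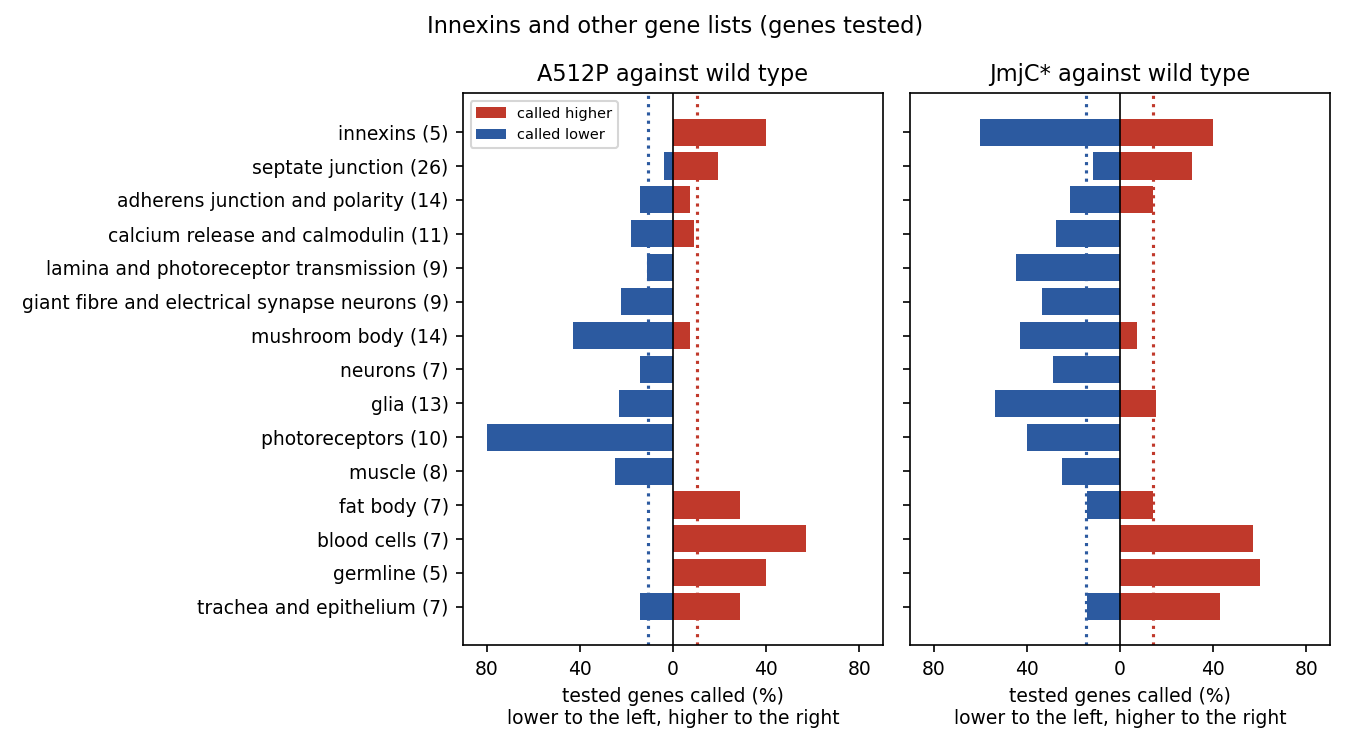
Share of tested genes called higher (red, to the right) and lower (blue, to the left) against wild type in the innexins and each other list, with the number of genes tested in brackets; dotted lines mark the shares over all tested genes. The lists of neurons, lamina, giant fibre, mushroom body, photoreceptors, glia, muscle, calcium and adherens junction genes lean to the left in both mutants. The septate junction, blood cell, germline, and trachea and epithelium lists lean to the right in both. Fat body genes lean to the right in A512P alone, and the innexins lie on both sides in JmjC*. Several of these lists rest on few called genes.

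Markers of the cells that carry these channels are given beside the values above. Glia are a known site of ogre and Inx2 channels. Of 13 glial markers 3 were called in A512P, all lower, and in JmjC* 7 fell and 2 rose (medians -0.10 and -0.19; 23.1% and 69.2% called). The astrocyte transporter genes Gat and Eaat1 fell in A512P (log2 -0.32 and -0.30) and in JmjC* (-0.66 and -0.48), and repo fell in both (-0.28 and -0.20). Gs2 and nrv2, with Eaat1 the glial markers of highest level, did not pass in A512P (-0.10 and -0.087) and fell in JmjC* (-0.18 and -0.19). The glial marker alrm did not pass in either mutant (-0.11 and -0.19). These values are from the authors' deposited tables. Markers of the glia that form the blood-brain barrier went both ways in JmjC*: moody and Gli rose by 0.42 and 0.36, and Mdr65 fell (log2 -0.30, adjusted p = 0.00241), in the authors' deposited table. The log2 fold changes of ogre and Inx2 in JmjC*, -0.20 each, are close to the median of the glial list there. The muscle, photoreceptor and lamina lists also had medians of -0.19 in JmjC*, so that closeness is not particular to glia. Medians of the septate junction, blood cell, germline, and trachea and epithelium lists were above 0 there. In A512P ogre and Inx2 stood at 0.093 and -0.016 beside a glial median of -0.10. Of 7 neuronal markers, 1 fell in A512P and 2 in JmjC* (medians -0.14 and -0.23), shares of 14.3% and 28.6% that do not exceed those over all genes. The values of shakB were -0.27 and -0.48. In bulk RNA fewer cells of a type and less RNA per cell cannot be told apart, and the part of cell composition in the innexin values was not tested. The lowest glial marker, wrapper, had a mean normalized count of 1482.

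Other marker lists gave the following counts, to be read against the 21% and 28.8% of all tested genes called. Of 10 photoreceptor genes 8 were called in A512P and 4 in JmjC*, all lower (medians -0.26 and -0.19), and of 8 muscle genes 2 were called in each mutant, all lower (-0.096 and -0.19), a share of 25% near those over all genes. Of 7 fat body genes 2 were called in A512P, both higher, and in JmjC* 1 rose and 1 fell (0.20 and -0.15), a share of 28.6% in each. Of 7 blood cell genes 4 were called in each mutant, all higher (0.38 and 0.52). Of 7 genes of trachea and epithelium, 2 rose and 1 fell in A512P, and 3 rose and 1 fell in JmjC* (0.079 and 0.0064), so this list went both ways.

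The germline list was low throughout, with 5 of 7 genes tested besides zpg and a highest mean normalized count of 67.4, that of piwi. In A512P 2 were called and in JmjC* 3, all higher (medians 0.38 and 1.03). These are 40% and 60% of only 5 tested genes, beside 21% and 28.8% of all tested genes. The genes piwi and aub rose by 0.73 and 0.61 in A512P and by 1.34 and 1.40 in JmjC*, and vas stood at -0.027 in A512P (adjusted p = 0.958) and rose by 1.03 in JmjC*, in the authors' deposited tables. The germline innexin zpg itself, at 0.636 counts, could not be read alongside them.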

How the data were processed

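The mRNA of 9 adult head libraries was sequenced as stranded pairs, per the labels' protocols. The submitters' processing notes name STAR and DESeq2 without versions; the sources used here do not give the build, annotation or strand setting. Each of the 2 deposited tables compares 1 mutant with wild type. Their signal column, a mean normalized count per the file headers, was the same in both for all 17478 genes. The authors also deposited a log2 fold change with its SE, a score (the Wald statistic), a p-value and an adjusted p-value, and the exon length is another column per the file headers. Depth per library is unknown here; precision is carried by the SE, with a median over tested genes of 0.124 (A512P) and 0.126 (JmjC*).

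Values were read as deposited with Python 3.11.15, pandas 2.3.3 and SciPy 1.17.1; the count test planned for library counts was not needed. Genes with an adjusted p are tested (11608 and 11898), and those under 0.05 are called. The mutants were compared by a two-sided normal test of the difference of log2 fold changes, Benjamini-Hochberg adjusted over all genes. The test was run on simulated data without shrinkage and with differences larger than those of the innexins. That run therefore does not give its power for the innexins. Intervals are 95% normal intervals. Positions are from BDGP6.54, whose annotation holds 17209 of the identifiers. Members and lists were chosen with earlier results of these data known. Named are all innexins, their nearest neighbours, the 3 called genes of smallest adjusted p in each pathway list, and marker genes of high level. Other genes were added after their values were seen: ey of the mushroom body list, Gat, repo, alrm, moody, Gli, Mdr65, wrapper and the germline genes nos, bam, osk and bgcn. In the lists 1 gene, aka, was not matched. Some genes are in more than 1 list, among them Gli, nrv2, Nrg, norpA, para, shg and Fas3. The lists are thus not separate from each other. The kdm5 gene, lid, was not called in either mutant (log2 -0.081 and -0.11, the authors' deposited tables); both alleles change the protein, so this does not check the labels.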

Additional observations from a re-analysis of the deposited data

How the results depend on the processing

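The 2 calls in A512P, Inx3 and Inx7, were kept under all 7 alternatives tried, and at an adjusted p under 0.1 shakB joined them, giving 3. The 5 calls in JmjC* came to 3 at an adjusted p under 0.01 and 3 with a minimum change of 1.2-fold (Inx3, Inx7 and shakB both times), to 1 with a Bonferroni adjustment (Inx7), and to 4 with adjustment over all genes that have a p-value. All settings but recentring keep the log2 fold changes as deposited, so they cannot change a sign. Recentring on the median of tested genes moved values by 0.0027 in A512P and 0.011 in JmjC*, less than the change of any tested innexin. With the comparisons correlated at 0.5, 1 innexin (ogre) differed between the mutants in place of 0, and 429 genes in place of 102. Single genes named, other than ey, osk and bgcn, gave 784 results under these settings. Of these, 73 lost their call, mostly under the stricter thresholds, and 13 gained one. Of 196 list counts 54 moved by over 1.5 times. No paired analysis was possible because the tables hold 1 value per comparison; leaving out replicates, another normalization and another count test were not run for the same reason. Shrinkage of fold changes at low counts limits what can be read of Inx5, Inx6 and zpg. The largest SE of any gene was 0.231. Fold changes of tested genes with low counts, such as Inx7, CR43837, mesh, vas, aub and piwi, may therefore be shrunken too. Their sizes are not on an equal footing with those of genes with high counts.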
